A study of Mus musculus with 6 samples.

Results

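The TH1 programme was followed through 10 genes, Tbx21, Ifng, Eomes, Stat4, Il12rb1, Il12rb2, Il18r1, Il18rap, Hlx and Ifngr1, in induced regulatory T (iTreg) cells that lacked or kept the microRNA miR-31. Every probe that the array files name after one of these genes was taken, whatever its values, which gave 12 of the 41174 probes on the array. Of these 12 probes, 10 probes of 9 genes passed the filter on dim signal and were among the 22281 probes tested. The probe for Hlx and the second probe for Il18rap were not well above background on any array and are given without a comparison.

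The cKO mice were miR-31 fl/fl CD4Cre, in which Cre recombinase under the control of CD4 sequences removes the loxP-flanked miR-31 allele in T cells, and the controls were miR-31 fl/fl mice without Cre, so that the floxed allele was common to both genotypes and Cre was not. Naive T cells, gated as CD4+CD25-Foxp3gfp-CD62Lhi, came from the spleens of C57BL/6 mice 6 weeks old and were cultured for 4 days with anti-CD3 (5 µg/ml), anti-CD28 (2 µg/ml), TGF-β1 (5 ng/ml) and IL-2 (40 ng/ml), the mixture that drives naive cells towards iTreg cells. These conditions are those of the sample labels, and the general methods of the study give another IL-2 dose and draw T cells from spleen and lymph nodes. RNA (0.5 µg) was labelled with Cy3 and hybridised to one-colour Agilent whole mouse genome arrays, 1 array for each of 3 cKO and 3 control mice. The 3 cKO arrays and control array 1 lay on 1 slide, and control arrays 2 and 3 lay on another, so that slide and genotype were partly confounded. The array was not used to follow the deletion of miR-31 itself.

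TH1 cells are the CD4+ helper lineage that defends against intracellular microbes and that can drive autoimmune inflammation, and interferon-γ (IFN-γ) is their hallmark cytokine. T-bet, encoded by Tbx21, is the lineage-defining transcription factor. It is induced by T-cell receptor and IFN-γ signals and enables the cell to respond to IL-12, which acts through STAT4, and to IL-18, and these signals together raise IFN-γ transcription. TGF-β opposes this programme in cells on the way to the Treg fate.

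The deleted microRNA and the stretch before the start of the TH1 genes with the highest and the next highest difference between genotypes by gene are shown first. In the mature miR-31 sequences, from RefSeq (GRCm38.p6, minus strand of chromosome 4, with the 5p arm at chr4:88910614-88910635), capitals mark the seed, bases 2 to 8, which pairs with target messages.
mmu-miR-31-5p: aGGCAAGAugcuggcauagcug
mmu-miR-31-3p: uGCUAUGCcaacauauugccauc

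The RefSeq promoter table (GRCm38.p6) held 12 starts of 9 of the 10 genes, all but Il12rb1. In the 250 bases before the start of Ifng (chr10:118440796-118441045, plus strand) and of Il12rb2 (chr6:67376189-67376438, minus strand), capitals mark the letters TTCNNNGAA, the form of site that STAT proteins bind, searched on both strands.
Ifng promoter: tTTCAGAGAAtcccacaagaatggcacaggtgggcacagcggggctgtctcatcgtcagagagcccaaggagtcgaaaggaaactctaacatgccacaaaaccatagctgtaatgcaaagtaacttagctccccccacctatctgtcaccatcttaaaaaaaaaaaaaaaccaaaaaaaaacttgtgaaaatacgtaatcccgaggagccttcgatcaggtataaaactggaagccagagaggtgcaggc
Il12rb2 promoter: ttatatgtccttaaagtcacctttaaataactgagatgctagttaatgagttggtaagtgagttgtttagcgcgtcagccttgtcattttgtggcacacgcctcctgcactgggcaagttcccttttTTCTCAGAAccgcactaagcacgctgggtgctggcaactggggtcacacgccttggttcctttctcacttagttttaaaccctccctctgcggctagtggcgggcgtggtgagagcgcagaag
The match began 249 bases before the start in Ifng and 123 bases before it in Il12rb2. The letters occurred before 3 of the 12 starts, which were those of Ifng and Il12rb2 and 1 of the 3 starts of Il18r1, and before 7.02% of 32851 starts of all genes in the table. GGTGTG, the core of the T-box site that T-bet binds, occurred before 1 of the 12 starts, another start of Il18r1, and before 16.3% of all starts. TGTGGT, the core of the Runx site, occurred before 0 of the 12 starts and before 14.0% of all starts. A match of letters describes the sequence and does not show binding.

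Signals are given as log2 of the processed signal minus the 75th percentile of the same array, so that 0 is the level of that percentile and a difference of 1 is a doubling. The 75th percentile was 1049.78, 1047.57 and 987.449 signal units on cKO arrays 1, 2 and 3 and 1147.52, 1089.72 and 1069.14 units on control arrays 1, 2 and 3, and between 49.3% and 57.7% of the spots of an array were well above background. Over all tested probes cKO array 3 stood apart from the others, with a correlation of 0.948 to 0.963 with the control arrays, the lowest of any pairs, and the lowest array weight in limma (0.18, against 0.653 to 3.86 for the other 5). A microarray has no read depth, and the 3 arrays of each genotype limit the precision. Genotypes were compared with limma, two-sided, with p-values adjusted by the Benjamini-Hochberg method over all 22281 tested probes. Levels of different probes are not comparable with each other, since each probe has its own response.

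Most TH1 genes lay higher in cKO than in control iTreg cells, and none of them passed the test. Of the 10 tested probes, 9 had a higher mean in cKO cells and 1, for Il18r1, had a lower one. The largest differences were those of Ifng, Il12rb2 and Stat4, each above 2-fold, and the differences of Eomes, Il18rap and Il18r1 were small beside their intervals. With limma, 0 of the 10 probes had an adjusted p under 0.05, beside 54 of all 22281 tested probes (0.242%). At an unadjusted p under 0.05, 4 of the 10 probes lay higher in cKO cells and 0 lay lower, beside 23.0% of all tested probes in either direction, 11.5% higher and 11.4% lower. The 3 cKO arrays all lay above the 3 control arrays for 7 of the 10 probes and all below for 0, beside 15.9% and 20.7% of all tested probes. The median log2 difference was 0.57 over the 10 probes and -0.04 over all tested probes. An exact two-sided permutation test of 3 against 3 arrays cannot give a p below 0.10, which is the value of each of these 7 probes.

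**Figure D1:**
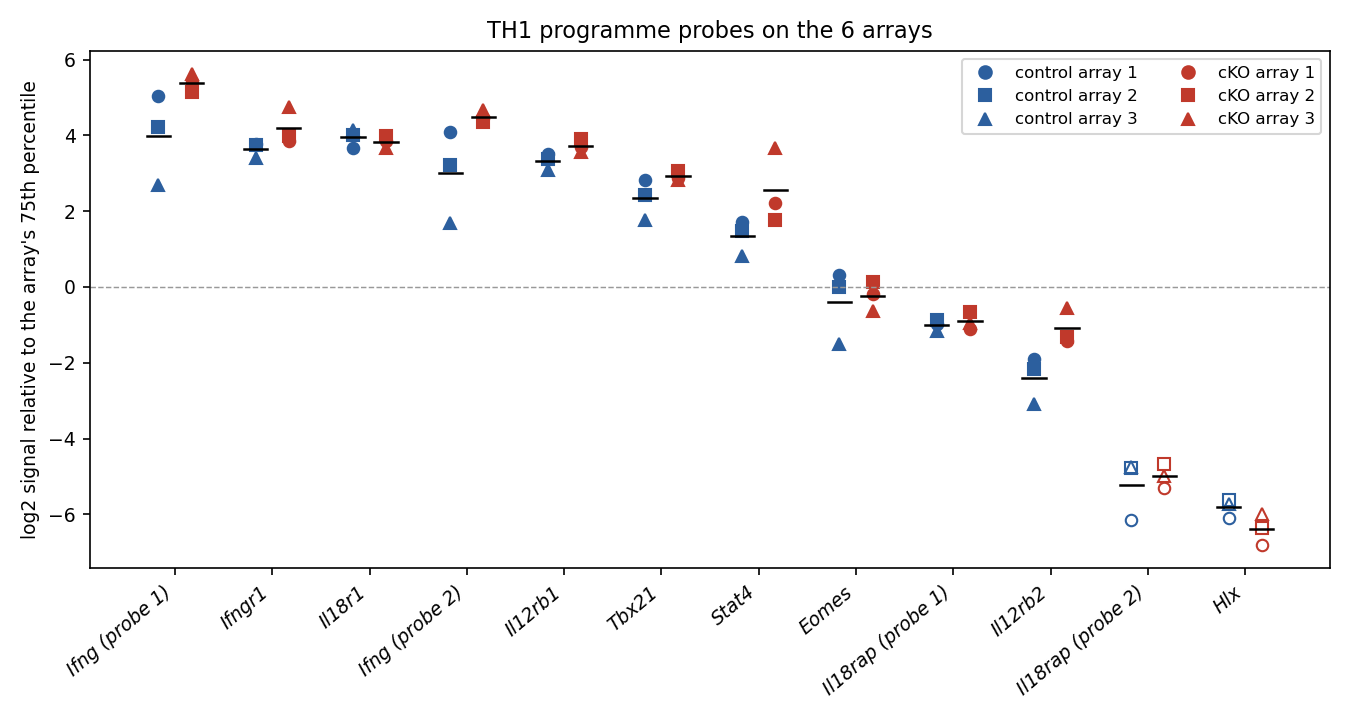
Log2 signal, set against the 75th percentile of its array (vertical axis), of the 12 TH1 programme probes, brightest first, on the 3 control (blue) and 3 cKO (red) arrays, with a black bar at each group mean and open symbols for the 2 probes that were not tested. Control array 3 (blue triangle) is the lowest of the 6 arrays for 9 of the 10 tested probes, and for 7 probes all red symbols lie above all blue ones.

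IFN-γ was read by 2 Ifng probes that matched the same transcript (NM_008337, chr10:117882841-117882900 and chr10:117882614-117882673 in mm9, plus strand). The brighter probe gave 5.41, 5.15 and 5.61 on cKO arrays 1 to 3 and 5.04, 4.22 and 2.68 on control arrays 1 to 3. The groups did not overlap, but the gap between the lowest cKO and the highest control array was 0.11, and the control arrays spread far more widely than the cKO arrays (SD 1.2 against 0.23, n = 3 each). The mean difference was 1.41 on the log2 scale (SE 0.57, 95% interval 0.02 to 2.80), or 2.66-fold, with an unadjusted p of 0.048 and an adjusted p of 0.22 in limma. The second probe, printed in 9 to 10 usable spots per array, gave 4.47, 4.36 and 4.66 in cKO cells and 4.10, 3.21 and 1.69 in control cells. It repeated the order of the control arrays, and its difference was 1.5 (SE 0.58, 95% interval 0.10 to 2.90, adjusted p 0.21). In these bulk samples, fewer cells that make a transcript and less of it per cell cannot be told apart.

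The difference of Ifng depended on which control array it was set against. The cKO mean of the brighter probe lay 0.35 above control array 1, which shared the slide of the cKO arrays, 1.17 above control array 2 and 2.71 above control array 3. Without control array 3 the difference was 0.76, and without control array 1 it was 1.94. For the second probe the corresponding values were 0.84 and 2.05.

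The IL-12 receptor has a β1 chain that IL-23 also uses and a β2 chain that gives IL-12 its response in TH1 cells. Il12rb2, the β2 chain (NM_008354, chr6:67242362-67242421 in mm9, minus strand), gave -1.42, -1.31 and -0.55 on cKO arrays 1 to 3 and -1.91, -2.17 and -3.09 on control arrays 1 to 3. The 2 groups stood apart, with a gap of 0.49 between the nearest arrays, the widest gap among the 10 probes. The difference was 1.30 (SE 0.37, 95% interval 0.39 to 2.21), or 2.46-fold with an interval of 1.31 to 4.61, and the unadjusted p of 0.013 and the adjusted p of 0.15 were the lowest among the TH1 genes. Against control array 1 alone, on the shared slide, the cKO mean lay 0.81 higher, and the lowest value over the leave-one-out fits was 0.95, without control array 3.

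Il12rb1, the β1 chain (NM_008353, chr8:73345189-73345248 in mm9, plus strand), differed less. It gave 3.68, 3.90 and 3.56 in cKO cells and 3.52, 3.37 and 3.1 in control cells. All cKO arrays were above all control arrays by a margin of only 0.04. The difference was 0.39 (SE 0.16, 95% interval 0.01 to 0.76), or 1.31-fold, with an unadjusted p of 0.046 and an adjusted p of 0.21. Against control array 1 alone it was 0.19, and with the slide as a term the unadjusted p was 0.41.

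STAT4 is the transcription factor that IL-12 activates through the receptor-bound kinases JAK2 and TYK2. Stat4 (NM_011487, chr1:52163802-52163861 in mm9, plus strand) gave 2.21, 1.77 and 3.67 on cKO arrays 1 to 3 and 1.71, 1.49 and 0.81 on control arrays 1 to 3. Its values did not overlap, although cKO array 2 lay just 0.06 above control array 1, and cKO array 3 stood well above the other 2 cKO arrays. The difference was 1.22 (SE 0.52, 95% interval -0.04 to 2.47, adjusted p 0.23), and without cKO array 3 it was 0.66. It was 0.84 against control array 1 alone.

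IL-18 acts with IL-12 on TH1 cells through a receptor of a binding chain, encoded by Il18r1, and an accessory chain, encoded by Il18rap, which are neighbouring genes. For both genes the cKO and control arrays overlapped. Il18r1 (NM_008365, chr1:40557541-40557600 in mm9, plus strand) gave 3.85, 3.98 and 3.66 in cKO cells and 3.66, 4.02 and 4.16 in control cells. It was the single TH1 probe that was highest on control array 3, the groups overlapped, and the difference was -0.11 (SE 0.17, 95% interval -0.52 to 0.29, adjusted p 0.68). With the slide taken into account its sign turned, to 0.17. Leaving out single arrays gave values from -0.26 (without control array 1) to -0.009 (without control array 3).

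For the Il18rap probe that was tested (NM_010553, chr1:40605729-40605788 in mm9, plus strand), the values were -1.11, -0.67 and -0.94 in cKO cells and -0.98, -0.86 and -1.15 in control cells. The groups overlapped and the difference was 0.09 (SE 0.15, 95% interval -0.28 to 0.46, adjusted p 0.72). The other probe, matched to an Ensembl transcript at chr1:40582730-40582789 in mm9, was not well above background on any array. Whether the differences of Il12rb1 and Il12rb2 exceeded those of the IL-18 receptor genes was not tested.

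T-bet is the transcription factor that defines TH1 cells, and Eomes is a related T-box factor, best known in CD8 T and NK cells, that can also drive Ifng. Tbx21 (NM_019507, chr11:96959417-96959476 in mm9, minus strand) gave 2.87, 3.07 and 2.84 on cKO arrays 1 to 3 and 2.82, 2.43 and 1.77 on control arrays 1 to 3. The lowest cKO array exceeded control array 1 by only 0.01, and the control arrays followed the same order as for Ifng. The difference was 0.58 (SE 0.27, 95% interval -0.07 to 1.24, adjusted p 0.25), or 1.5-fold. It was 0.10 against control array 1 alone and 0.30 without control array 3.

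Eomes (NM_010136, chr9:118394286-118394345 in mm9, plus strand) gave -0.19, 0.14 and -0.62 in cKO cells and 0.32, 0.00 and -1.49 in control cells. The groups overlapped, with control array 1 the highest and control array 3 the lowest of the 6. The difference of 0.17 (SE 0.49, 95% interval -1.02 to 1.36, adjusted p 0.85) turned to -0.38 without control array 3 and to -0.55 against control array 1 alone. The homeobox factor Hlx, a partner of T-bet in inducing Ifng (NM_008250, chr1:186554630-186554689 in mm9), was not well above background on any of the 6 arrays.

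Ifngr1 encodes the ligand-binding chain of the IFN-γ receptor. Its probe (NM_010511, chr10:19329923-19329982 in mm9, plus strand) gave 3.86, 3.98 and 4.75 on cKO arrays 1 to 3 and 3.78, 3.76 and 3.40 on control arrays 1 to 3. The groups did not overlap by a margin of 0.07, and cKO array 3 was the highest. The difference was 0.55 (SE 0.26, 95% interval -0.08 to 1.19, adjusted p 0.26), and 0.27 without cKO array 3. Against control array 1 alone it was 0.41.

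**Figure D2:**
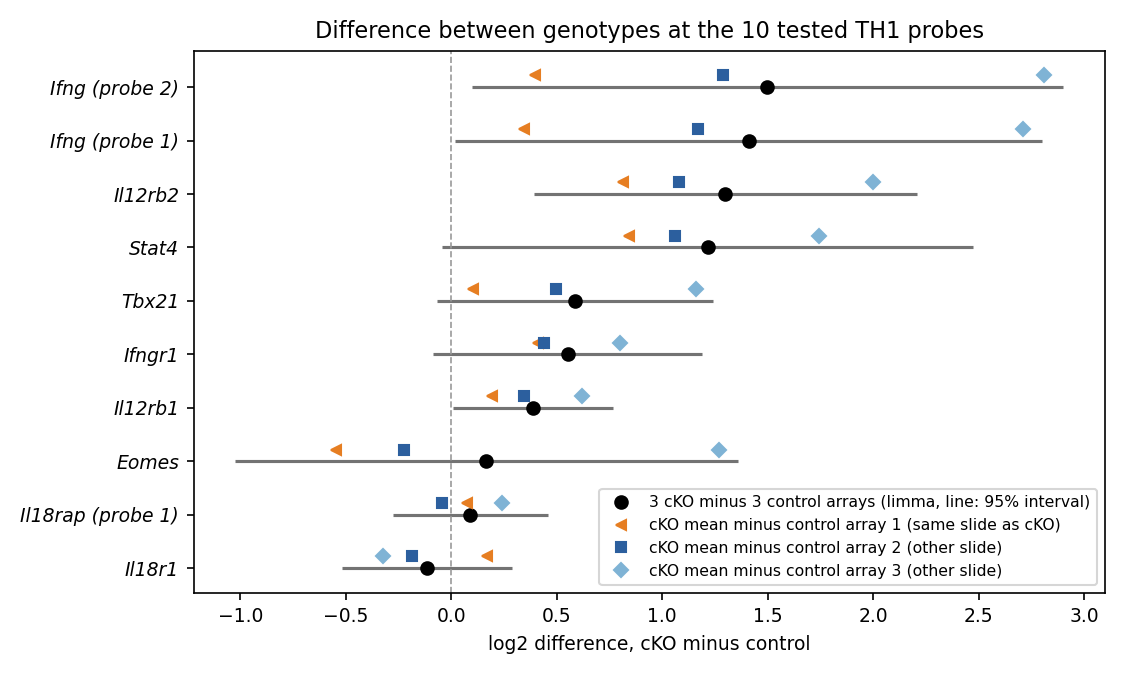
Log2 difference between cKO and control iTreg cells (horizontal axis) for the 10 tested TH1 probes, with the limma estimate and its 95% interval (black) and the cKO mean minus each single control array (coloured). For Ifng the difference runs from 0.35 against control array 1, on the slide of the cKO arrays, to 2.71 against control array 3, and for Eomes, Il18r1 and Il18rap the sign depends on the control array.

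Most of the TH1 probes placed the arrays in a like order. Control array 3 was the lowest of the 6 arrays for 9 of the 10 probes, control array 1 was the highest control array for 8 of them, and cKO array 3, the array that stood apart over all probes, was the highest of all for 5. Without cKO array 3, the 10 probes kept their directions. That limma fit called 2 of the 10 at an unadjusted p under 0.05, beside 4685 of all tested probes. The median over the 10 probes of the cKO mean minus the control array was 0.27 for control array 1, 0.47 for control array 2 and 1.21 for control array 3, and the cKO mean lay above these arrays for 9, 7 and 9 of the probes. Over all tested probes the same medians were -0.003, -0.04 and -0.08. These probes come from the same 6 RNA samples and are not independent of each other.

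Within the slide that held both genotypes, 9 of the 10 probes had a cKO mean above control array 1, by between 0.07 for Il18rap and 0.84 for Stat4. The adjusted p-values lay between 0.89 and 0.96 there, with a single control array that was assumed to vary like the cKO arrays. With all 6 arrays and the slide as a term, the differences had the same values. The parts of slide and of the single mice in the range over the control arrays cannot be told apart.

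**Figure D3:**
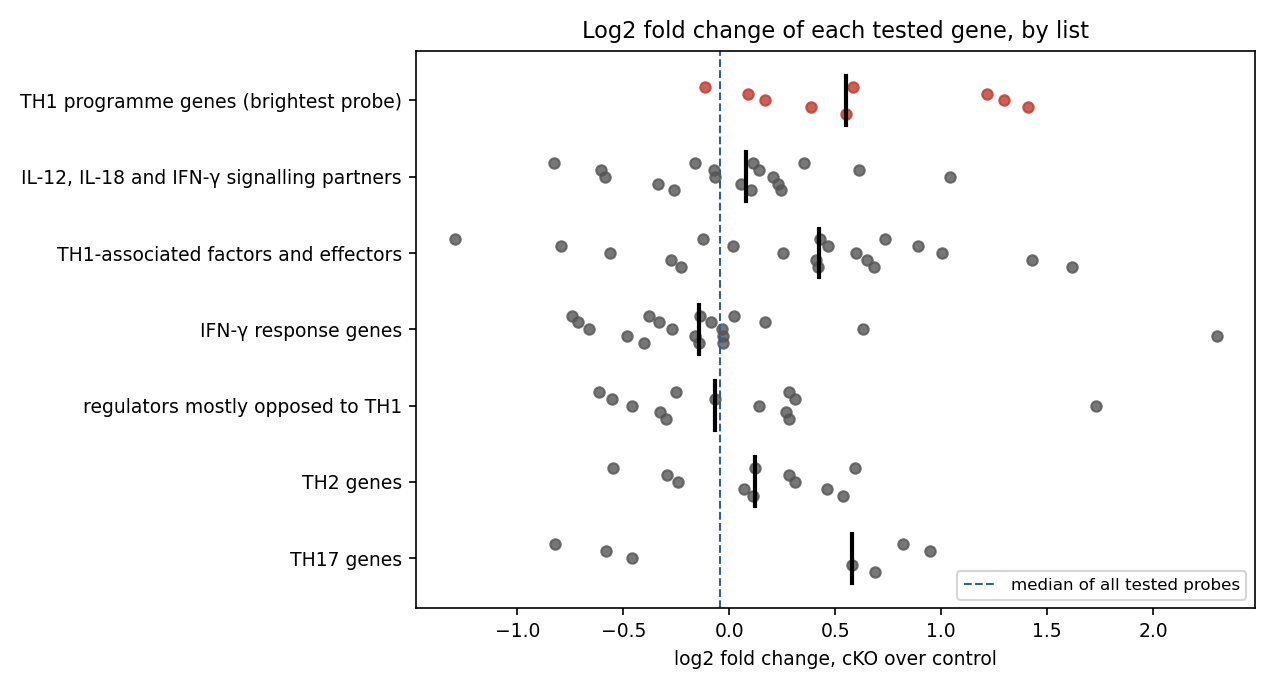
Log2 fold change of cKO over control iTreg cells (horizontal axis) for each tested gene of the TH1 programme (red, brightest probe) and of 6 other lists (grey), with a black bar at each list's median and a dashed line at the median of all tested probes. The medians are 0.55 for the TH1 programme genes, 0.42 for TH1-associated factors and effectors and -0.14 for IFN-γ response genes, Nos2 included.

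The partners that carry IL-12, IL-18 and IFN-γ signals inside the cell lay in no common direction. Of 18 genes, all of them tested, 10 lay higher and 8 lower in cKO cells, with a median log2 fold change of 0.08. None had an adjusted p under 0.05 in limma, and 2 lay higher and 3 lower at an unadjusted p under 0.05, near the 11.5% and 11.4% of all tested probes. Jak2, a kinase of both the IL-12 and the IFN-γ receptor, was 0.61 higher (adjusted p 0.20), with 3.06, 3.52 and 3.96 in cKO cells above 2.94, 2.86 and 2.91 in control cells, and without cKO array 3 the difference was 0.39. The other receptor components differed less, with 0.21 for Ifngr2, the second chain of the IFN-γ receptor, 0.10 for the kinase Jak1 and 0.23 for the kinase Tyk2. Without cKO array 3, Ifngr2 had -0.08 and Jak1 0.02, and without control array 3 Tyk2 had 0.096.

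Irf1, a transcription factor that IFN-γ induces, had a difference of -0.16. Among the inhibitors of the pathway, Socs1, which shuts off IFN-γ signalling, had -0.59 (adjusted p 0.17, and -0.39 without cKO array 3), and Il18bp, the secreted decoy that neutralises IL-18, had -0.83 (adjusted p 0.12, and -0.49 under normexp with percentile scaling), both lower on every cKO array than on any control array. Socs3, an inhibitor of gp130 and IL-12 receptor signalling, had 1.04 (adjusted p 0.14) at its brighter probe and 0.00 at its other tested probe, and the brighter one had 0.55 with the slide as a term.

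Other factors and effectors linked to TH1 cells lay mostly on the higher side. Of 20 genes, all tested, 14 lay higher and 6 lower, with a median of 0.42. At an unadjusted p under 0.05, 8 lay higher and 1 lower, beside 11.5% and 11.4% of all tested probes, and 0 had an adjusted p under 0.05. For 8 genes all cKO arrays were above all control arrays and for 2 all were below, beside 15.9% and 20.7% of all tested probes.

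Hopx, a small homeodomain protein found in lasting TH1 cells, had the largest difference of these genes. It gave 1.91, 2.27 and 3.18 on cKO arrays 1 to 3 and 1.21, 0.93 and 0.36 on control arrays 1 to 3, a difference of 1.62 (SE 0.37, adjusted p 0.12) with no overlap. Ly6c1, a surface protein of effector and memory T cells, followed with 1.43 (adjusted p 0.13, and 0.71 with the slide as a term), and Runx3, which works with T-bet at Ifng, had 0.68 (adjusted p 0.15), both without overlap. The chemokine Xcl1 went the other way, with -1.30 (adjusted p 0.19). Cxcr3, the chemokine receptor that T-bet induces in TH1 cells, had 0.43 with overlapping groups (adjusted p 0.38) and 0.13 without cKO array 1.

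Genes that IFN-γ induces in responding cells lay mostly on the lower side, unlike Ifng. Of 20 genes, 19 passed the filter, and Nos2, which passed it through the cKO arrays alone, is left out of the counts. Of the other 18 genes, 3 lay higher and 15 lower in cKO cells, with a median of -0.15, beside 9984 higher, 12297 lower and a median of -0.04 over all tested probes. At an unadjusted p under 0.05, 0 lay higher and 6 lower, beside 11.5% and 11.4% of all tested probes, and 0 had an adjusted p under 0.05. All cKO arrays were below all control arrays for 8 of the 18 genes and above for 1, beside 20.7% and 15.9% of all tested probes. Type I interferons induce many of the same genes, and the list cannot separate these signals.

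Gbp2, an interferon-induced GTPase, gave 5.82, 5.59 and 5.53 in cKO cells and 6.55, 6.06 and 6.46 in control cells, without overlap. Its difference was -0.71 (SE 0.17, adjusted p 0.12). Ciita, the master regulator of MHC class II genes, had -0.74 (adjusted p 0.17), or -0.17 with another background correction (normexp), and both were lower against every control array. As for 3 of the other 18 genes, the difference of Nos2, inducible nitric oxide synthase, went the other way. At least 1 of its repeated spots was well above background on each of the 3 cKO arrays and on 0 control arrays, and its test is not given. With each control value raised to the lowest signal called well above background on that array, the cKO mean was 1.4-fold the control mean. The cKO values were taken as measured. On cKO array 1 the mean over spots (38.3 signal units) itself lay under the lowest such signal of that array (42.3 units). The 1.4-fold is therefore not a firm lower bound. Whether the IFN-γ response genes differed from the TH1 genes was not tested.

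**Figure D4:**
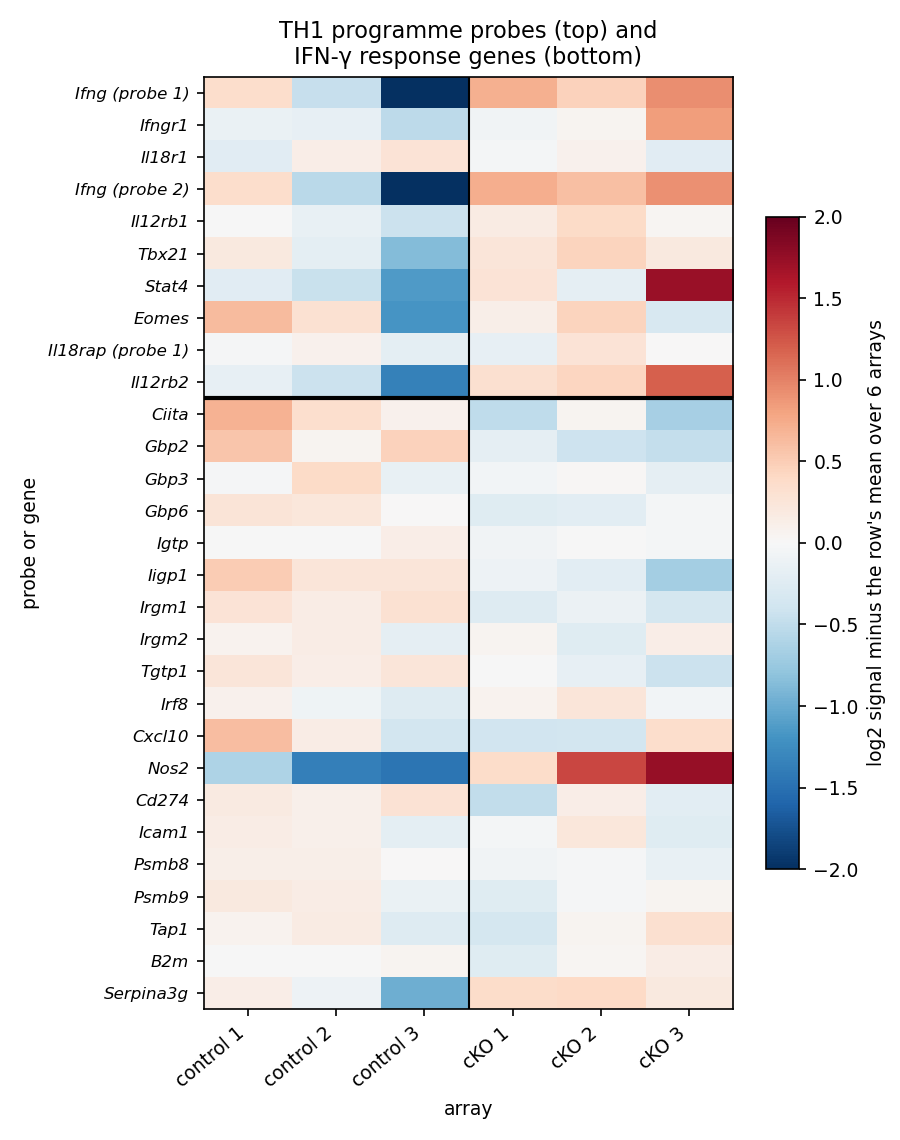
Log2 signal minus the row's mean over the 6 arrays (colour scale, red higher and blue lower, clipped at 2 on either side) for the 10 tested TH1 programme probes above the black line and the 19 tested IFN-γ response genes below it, with the 3 control arrays on the left and the 3 cKO arrays on the right. Control array 3 is blue for Ifng, Tbx21, Stat4, Eomes and Il12rb2, while 15 of the 18 response genes other than Nos2 have a lower mean in cKO cells.

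A list of 14 regulators held mostly factors known to restrain the TH1 programme or to direct other T-cell fates, but also Ets1, a known partner of T-bet, and 13 were tested, with 6 higher and 7 lower in cKO cells, a median of -0.07 and 0 with an adjusted p under 0.05. Foxp3, which defines Treg cells, gave 3.16, 3.12 and 2.45 in cKO cells and 3.42, 3.42 and 3.76 in control cells. It was lower on each cKO array, with a difference of -0.62 (SE 0.22, adjusted p 0.19) that came to -0.39 without cKO array 3. Prdm1, which encodes BLIMP1, lay the other way from the list's median, with 1.73 (adjusted p 0.12), or 1.14 with the slide as a term and 1.12 under normexp with quantile normalization, and Runx1, a partner of FOXP3, had -0.55 (adjusted p 0.14) and -0.16 at its other tested probe, with no overlap for Prdm1 or for the brighter Runx1 probe. Gata3, which defines TH2 cells, had 0.28 with overlapping groups, and 0.11 without control array 3.

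The genes of the other helper lineages were set beside the TH1 genes. Of 13 TH2 genes, 11 were tested, with 8 higher and 3 lower and a median of 0.12. At an unadjusted p under 0.05 in limma, 1 of the 11 lay higher and 0 lower, beside 11.5% and 11.4% of all tested probes. That gene was Nfil3, at 0.60 (adjusted p 0.12). Nfil3 had 0.36 under normexp with percentile scaling (unadjusted p 0.18) and an unadjusted p of 0.073 with the slide as a term. Of 13 TH17 genes only 7 were tested, with 4 higher and 3 lower and a median of 0.58, and the 4 higher ones had an unadjusted p under 0.05, beside 11.5% of all tested probes on that side. Among those 4, Ccr6, the chemokine receptor of TH17 cells, had 0.95 (adjusted p 0.20), the nuclear receptor Rora 0.82 (adjusted p 0.20) and Ahr, a sensor of aromatic compounds, 0.69 (adjusted p 0.14). The 2 lists held 0 genes with an adjusted p under 0.05, and Il17a, the lineage's cytokine, was not well above background on any array. No test set the TH1 genes against these lists.

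Markers of the cells in the cultures were read on the same scale. The 8 T-cell markers, among them Cd3d, the brightest, and Cd4, were well above background on all 6 arrays, and their summed signal, relative to the 75th percentile, was 251, 273 and 314 on cKO arrays 1 to 3 and 245, 240 and 235 on control arrays 1 to 3. It was higher in every cKO sample and highest on cKO array 3, as for Ifng. Taken singly, 6 of the 8 markers lay higher and 2 lower in cKO cells, with differences from -0.28 to 0.74. The 9 Treg markers on the array were above background on all 6 arrays too, with sums of 183, 205 and 196 in cKO and 196, 197 and 164 in control cells, led by Tnfrsf18. The part of these differences in the TH1 results was not tested.

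NK cells and CD8 T cells are other sources of IFN-γ, T-bet and Eomes, and the naive T cells put into culture had been gated as CD4+. Of 10 NK-cell markers, Klrb1c, Klre1, Klra4 and Klri2 were not well above background on any array. Ncr1 and Klra8 were above it on some arrays, but on fewer than the 3 that a test needed. The 4 that were above it on all arrays were Klrd1, Klrc1, Gzma and Prf1, which activated T cells can also express. The 10 markers summed to 12.1, 3.61 and 11.5 on cKO arrays 1 to 3 and 6.76, 3.17 and 2.71 on control arrays 1 to 3, led by Klrd1. The sum was highest on cKO arrays 1 and 3 and lowest on control array 3. Klrd1 was 1.88 higher in cKO cells (adjusted p 0.20) and Klrc1 1.82 (adjusted p 0.18), the latter without overlap, while Gzma and Prf1 had -0.38 and -0.46. Both CD8 markers were above background on all arrays, and Cd8a and Cd8b1 summed to 4.06, 3.87 and 4.34 in cKO and 5.34, 4.42 and 5.61 in control cells, lower on each cKO array.

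Markers of other blood cells were read in the same way. The 7 B-cell markers summed to 0.569, 0.708 and 1.29 in cKO and 0.632, 0.641 and 0.401 in control cells, with Cd79b the brightest and Pax5, Cd22 and Blk not well above background anywhere. The 8 myeloid markers summed to 0.312, 1.41 and 1.42 in cKO and 0.471, 0.496 and 0.443 in control cells, led by Fcgr3, with Itgax not above background, and the 5 erythroid markers to 0.541, 0.491 and 1.09 in cKO and 0.306, 0.414 and 0.225 in control cells, led by Hbb-b1, with Alas2 not above background. Hbb-b1, the tested erythroid gene, differed by 2.10 (adjusted p 0.16) without overlap at its brightest probe and by 0.43 to 2.26 over its 3 probes. Of the 3 tested myeloid genes, Fcgr3 differed by 1.69 (adjusted p 0.58, above background on 4 arrays) and Cd68 by 0.63 (adjusted p 0.19, without overlap). The remaining myeloid gene differed by 0.145, and the B-cell gene Cd79b by 0.60 (adjusted p 0.33). The part of any of these cells in the TH1 results was not tested.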

How the data were processed

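The deposited scanner files hold 45018 spots per array, of which 43379 are not controls, as linear spot intensity that the authors extracted with Agilent Feature Extraction (version 9.1 per the submitters' processing notes, 10.7.3.1 per the file headers), background-subtracted and not normalized between arrays. The table of log2 values deposited by the authors has column medians of 6.15 and correlates at 0.998 or above with the log2 signal of the same arrays. Its normalization is not given in the sources used here, and it served as an alternative.

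Flagged outlier spots (123 to 140 per array) were left out, the 75th percentile was subtracted on the log2 scale, and the spots of a probe were averaged. Those probes that 3 or more of the 6 arrays read well above background were tested with limma 3.58.1 in R 4.3.3 (lmFit and eBayes, Benjamini-Hochberg adjustment). No non-control spot was saturated. The procedure was tested on simulated data with known changes. Their noise was drawn independently for each probe and array, so this test does not bear on effects that probes of an array share. Other lists used the brightest tested probe of each gene. The text names all 10 TH1 genes, a fixed set of signalling partners and lineage genes (of which 2 are not reported here), and in each other list the 3 genes with the largest log2 fold change among those with an unadjusted p under 0.05. Hopx, Gbp2, Jak2 and Foxp3, whose array values are given, and Il17a were picked for display after their values were seen. The TH1 genes, the lists and the tests were chosen with earlier results of these data known. The study's methods name 3 mice of each genotype as the source of the cells, and the sample titles give replicate numbers 1 to 3. Probe positions are the array annotation's (mm9), and exons and UTRs at the probes were not analysed here. Of 10 Treg markers, 1, Lrrc32, was not matched by name. Of the 28486 probes with a RefSeq accession, 27668 matched the RefSeq gene table.

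The alternatives were normexp background correction (offset 50) with percentile or quantile scaling, quantile normalization, median scaling, the authors' table, other filters on dim probes, other limma settings, the methods' t-test, a term for the slide or for the replicate number, the mean over a gene's probes, and leaving out each array.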

Additional observations from a re-analysis of the deposited data

How the results depend on the processing

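In all 19 alternatives, 0 of the 10 TH1 probes had an adjusted p under 0.05, and the lowest adjusted p of any of them was 0.096, for Il12rb1 with array weights (range over its alternatives up to 0.89). For 7 probes, those of Ifng (both), Il12rb1, Il12rb2, Stat4, Tbx21 and Ifngr1, the direction was the same in every alternative. The other filters, trend and robust fitting, the t-test and the replicate block left the differences themselves unchanged, so the direction could not turn there. The 2 fits that used the slide gave equal differences. Il18r1 had 0.17 with the slide as a term and within the shared slide. Eomes had -0.55 in both, -0.016 without cKO array 2 and -0.38 (without control array 3) to 0.52 over the leave-one-out fits, and Il18rap had -0.027 (without cKO array 2) to 0.19. Among the other genes, Jak1 had -0.16 under normexp with percentile scaling and Ifngr2 -0.082 (without cKO array 3) to 0.44 over the leave-one-out fits. With array weights Il18bp (-0.67, adjusted p 0.041 in limma) passed the threshold, it had -0.49 under normexp with percentile scaling, and in its other alternatives the adjusted p ran up to 0.82. Ciita had -0.17 and Il12rb1 0.18 under normexp with percentile scaling, and with the slide as a term Socs3 had 0.55, Ly6c1 0.71, Runx3 0.43, Prdm1 1.14 and Ccr6 1.48. Single arrays moved Jak2 (0.39) and Socs1 (-0.39), both without cKO array 3, Cxcr3 (0.13 without cKO array 1), Gata3 (0.11) and Tyk2 (0.096), both without control array 3, and Irf1 (-0.053 without cKO array 2). The causes were not tested.

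The count of TH1 probes at an unadjusted p under 0.05 was 4 in the values reported. That number was 1 under normexp with percentile scaling and under the methods' t-test. Without a filter on dim probes and with array weights it was 2, and with the slide as a term it was 0. When single arrays were left out it ran from 1 (without control array 2) to 5. Over all probes tested in a setting, the same count was 5120 in the values reported. For the alternatives it was 1659 under normexp with percentile scaling, 4705 without a filter and 6688 with array weights. With the slide as a term it was 1646, and it was 2865 to 6465 when single arrays were left out. The count of all probes with an adjusted p under 0.05 was fragile, since 26 of the 54 lay between 0.049 and 0.05. It was 0 under normexp with percentile scaling, without a filter, under the methods' t-test, with the slide as a term and within the slide, 112 under normexp with quantile normalization, 28 under quantile normalization and in the authors' table, 174 with probes above background on all arrays, 105 with trend and robust fitting, 924 with array weights, and 0 to 1 when single arrays were left out. At an unadjusted p under 0.05 the methods' t-test called 4018 probes. Normexp with percentile scaling moved the median of all probes from -0.04 to 0.11.

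The replicate numbers did not pair the samples (correlations of same-numbered deviations -0.14, 0.01 and -0.19). With a replicate block in limma, 0 probes had an adjusted p under 0.05. At an unadjusted p under 0.05 that fit called 3 TH1 probes, beside 3627 of all tested probes. The mean over both Ifng probes was 1.45. The 3 mice per genotype, 1 control array on the shared slide and the low signal of Hlx limit these comparisons.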

Other observations

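Treg-cell genes outside the TH1 programme differed in both directions. Of the 9 Treg markers tested, 4 lay higher and 5 lower in cKO cells, with a median log2 fold change of -0.28 and 0 with an adjusted p under 0.05 in limma, with 1 higher and 3 lower at an unadjusted p under 0.05, beside 11.5% and 11.4% of all tested probes. Gpr83, a G-protein-coupled receptor abundant in Treg cells, gave 2.77, 2.52 and 1.43 on cKO arrays 1 to 3 and 4.03, 4.26 and 4.44 on control arrays 1 to 3, and Ctla4, the inhibitory receptor of Treg and activated T cells, gave 0.57, 0.95 and 1.16 against 0.24, 0.11 and -0.47. Their differences of -2.0 (adjusted p 0.090) and 0.94 (adjusted p 0.14) were singled out after their values were seen.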
